A study of Mus musculus with 6 samples.

Results

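Translation initiation and elongation factors were represented by 155 of the 45101 probe sets on the array, which together named 58 genes. A probe set was a member when its only gene symbol in the platform annotation began with Eif or Eef followed by a digit. This rule reads symbols and no measured value, but it was chosen with earlier results of these data known. Of these probe sets, 115 had a mean intensity of at least 50 in at least 1 group and were tested, and they covered 55 genes. Eef2kmt, Eif2ak2 and Eif4a3 stayed under 50 in both groups on every member probe set and were not tested. A further 8 probe sets that name a factor together with another gene were left out, and Eif2s1, Eif1, Eif4g1 and Eif3g are not analysed here.

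Initiation factors bring the initiator tRNA, the mRNA cap and the small ribosomal subunit together and locate the start codon. Elongation factors then deliver aminoacyl-tRNAs and move the ribosome along the message. In neurons the phosphorylation of eIF2 alpha, the eIF4E binding proteins and eEF2 kinase are known points at which protein synthesis is regulated, in part near synapses.

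The data were 6 microarrays of RNA from mouse cortex, in 3 samples of each group. Both groups came from the same bacterial artificial chromosome transgenic line, ES691, in which the S100a10 driver puts a tagged ribosomal protein into a set of cortical cells. The line was made in FVB mice and backcrossed for 3 to 5 generations onto C57BL/6, no treatment is recorded, and no age is given in the labels. The TRAP group (translating ribosome affinity purification) is RNA that came down with the tagged ribosomes, and the unbound group is RNA of the whole cortical lysate left after that step. The samples' titles call the second group input, whereas their other labels describe flow-through. By the series' own description the S100a10 driver also labels some cells that are not neurons. TRAP measures RNA on ribosomes of the tagged cells and unbound RNA comes from all cells, so cell type and ribosome association cannot be told apart. In bulk RNA, fewer cells of a type and less RNA per cell cannot be told apart either.

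The median intensity over all probe sets was 31.4 to 31.8 on the TRAP arrays and 42.4 to 43.1 on the unbound arrays. S100a10 and Deptor, the layer 5a markers that were tested, were both higher in TRAP (log2 2.55 and 0.58). S100a10 is also the driver gene that defines the tagged cells, so its rise is no independent sign of their layer. That leaves Deptor, with the smaller rise, as the only other layer 5a marker tested. All 5 tested markers of oligodendrocytes were lower, with a summed intensity of 3106 to 4809 in TRAP against 33398 to 38115 in unbound. All 5 tested microglial markers were lower, at a sum of 278 to 387 against 1136 to 1396, and C1qa, Cx3cr1 and P2ry12 were under 50 in TRAP. Of the 5 interneuron markers 4 were lower, at a sum of 11498 to 13708 against 28854 to 29622, and of the 5 astrocyte markers 3 were lower and 1 was higher. All 5 tested meningeal fibroblast markers were higher in TRAP, at a sum of 14155 to 17610 against 427 to 577, as were all 3 smooth muscle markers. Of the 5 tested pyramidal neuron markers 2 were higher and 1 was lower, at a sum of 16703 to 18291 against 15455 to 16648. Most of that sum came from the higher genes, Neurod6 and Nrn1 (log2 0.46 and 0.33). Camk2a was the lower one (-1.50), and the median of the list was -0.08. These marker lists move with the comparison below, and their part in the values of the translation factors was not tested.

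Some RefSeq promoter stretches are shown first, because they place the members beside known sequence motifs of growth and translation genes. They are given 5′ to 3′ on the gene's strand in build GRCm38.p6. RefSeq windows of 300 bases, with 250 before and 50 after an annotated start, were found for 47 of the 58 genes, as 62 windows. Eef1akmt1, Eef1d, Eif1a, Eif2b3, Eif3e, Eif3h, Eif3i, Eif4e3, Eif4ebp1, Eif4g2 and Eif6 had no entry.
A terminal oligopyrimidine (TOP) start, searched as a C at the annotated start followed by at least 4 pyrimidines, was present in 2 of the 47 genes (4.26%) and in 3.01% of all 27025 genes with a window. A run that begins some bases away from the annotated start was not counted, so these shares may miss TOP starts. The stretches below hold 40 bases before the start and 20 after it, and capitals mark the pyrimidine run that begins at the start. Eif2s3x lies at chrX:94212632-94212691 on the minus strand, Eif3f at chr7:108934375-108934434 on the plus strand, and Eif2s3y, the Y-linked copy shown for comparison, at chrY:1010555-1010614 on the plus strand, where no run begins at the start.
Eif2s3x: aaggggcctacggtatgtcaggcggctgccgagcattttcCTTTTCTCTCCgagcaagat
Eif3f: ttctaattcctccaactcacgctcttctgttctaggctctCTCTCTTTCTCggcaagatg
Eif2s3y: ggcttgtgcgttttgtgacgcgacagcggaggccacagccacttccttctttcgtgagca

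The E-box CACGTG, searched on both strands, was found in 12 of the 47 genes (25.5%). It was found in 8.09% of all genes with a window and in 11.7% of the 9789 of them that were tested. Of the 12 genes, 3 were higher in TRAP, 4 were lower and 5 were not called. The ETS motif CCGGAAGT, on either strand, was found in 9 of the 47 genes (19.1%), in 4.31% of all genes and in 8.56% of the tested ones, and 2 of the 9 were higher, 2 lower and 5 not called. The 4 examples are Eef2 at chr10:81176578-81176650 and Eif1b at chr9:120492566-120492625 for the E-box, and Eef1b2 at chr1:63176791-63176850 and Eif4e2 at chr1:87213871-87213930 for the ETS motif, all on the plus strand and with the motif in capitals. They were chosen to show 2 called genes (Eif1b and Eif4e2) beside 2 that were not called. A match describes letters in a window and no factor's binding was measured.
Eef2: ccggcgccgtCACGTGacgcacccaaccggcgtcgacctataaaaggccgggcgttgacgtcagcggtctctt
Eif1b: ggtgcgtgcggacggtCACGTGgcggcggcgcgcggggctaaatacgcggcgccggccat
Eef1b2: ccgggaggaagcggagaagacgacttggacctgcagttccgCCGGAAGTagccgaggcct
Eif4e2: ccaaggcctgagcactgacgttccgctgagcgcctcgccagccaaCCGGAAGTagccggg

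In TRAP against unbound, the translation factors moved in both directions and by little. Of the 55 genes, each read by its probe set with the highest mean, 15 were higher in TRAP, 15 were lower and 25 were not called (limma, Benjamini-Hochberg adjusted p under 0.05 over 12070 genes). Among all 12070 genes, 23.3% were called higher and 45.7% lower, 69.0% in all, so that the called share of the factors (54.5%) was below the background. The median log2 fold change was -0.05 for the factors and -0.21 for all genes, and the median size without sign was 0.33 against 0.48. The factors ranged from -0.94 (Eif4b) to 1.03 (Eef1akmt1). Eef1akmt1 was the only one both called and at least 2-fold, where 20.6% of all genes were. TRAP and unbound arrays did not overlap for 35 of the 55 factors (63.6%) and for 75.5% of all genes.

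The direction of the lower calls depends on where 0 is set. Centring each array on the median of its kept probe sets moved the median of all genes to 0.047, and 26 factors were then called higher and 7 lower. Quantile normalisation put that median at 0.0037. Over the deposited scale and both of these scalings, all 15 higher calls and 7 of the 15 lower calls were kept, the latter being Eif3b, Eif5b, Eif5, Eif2ak4, Eif5a2, Eif2s3x and Eif4b. With each array centred on all probe sets, a choice added after the data were seen, only Eif2s3x and Eif4b of the lower calls were kept. These scalings all raised the median of all genes, from -0.21 to 0.0037, 0.047 and 0.23. They therefore favour higher calls and work against lower ones. That all 15 higher calls were kept under them says little about how steady those calls are. Leaving out each array in turn kept 10 higher and 11 lower calls in every fit. Requiring the same call under all these scalings, every left-out array and both other ways of reading several probe sets left 5 higher genes (Eef1akmt1, Eif2b2, Eif4ebp1, Eif1b and Eif2b1) and 2 lower ones (Eif2s3x and Eif4b). Of these, Eif2b2, Eif4ebp1 and Eif2s3x had the same value on several arrays of a group, which narrows their error. Leaving out such probe sets was not part of this requirement.

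**Figure D1:**
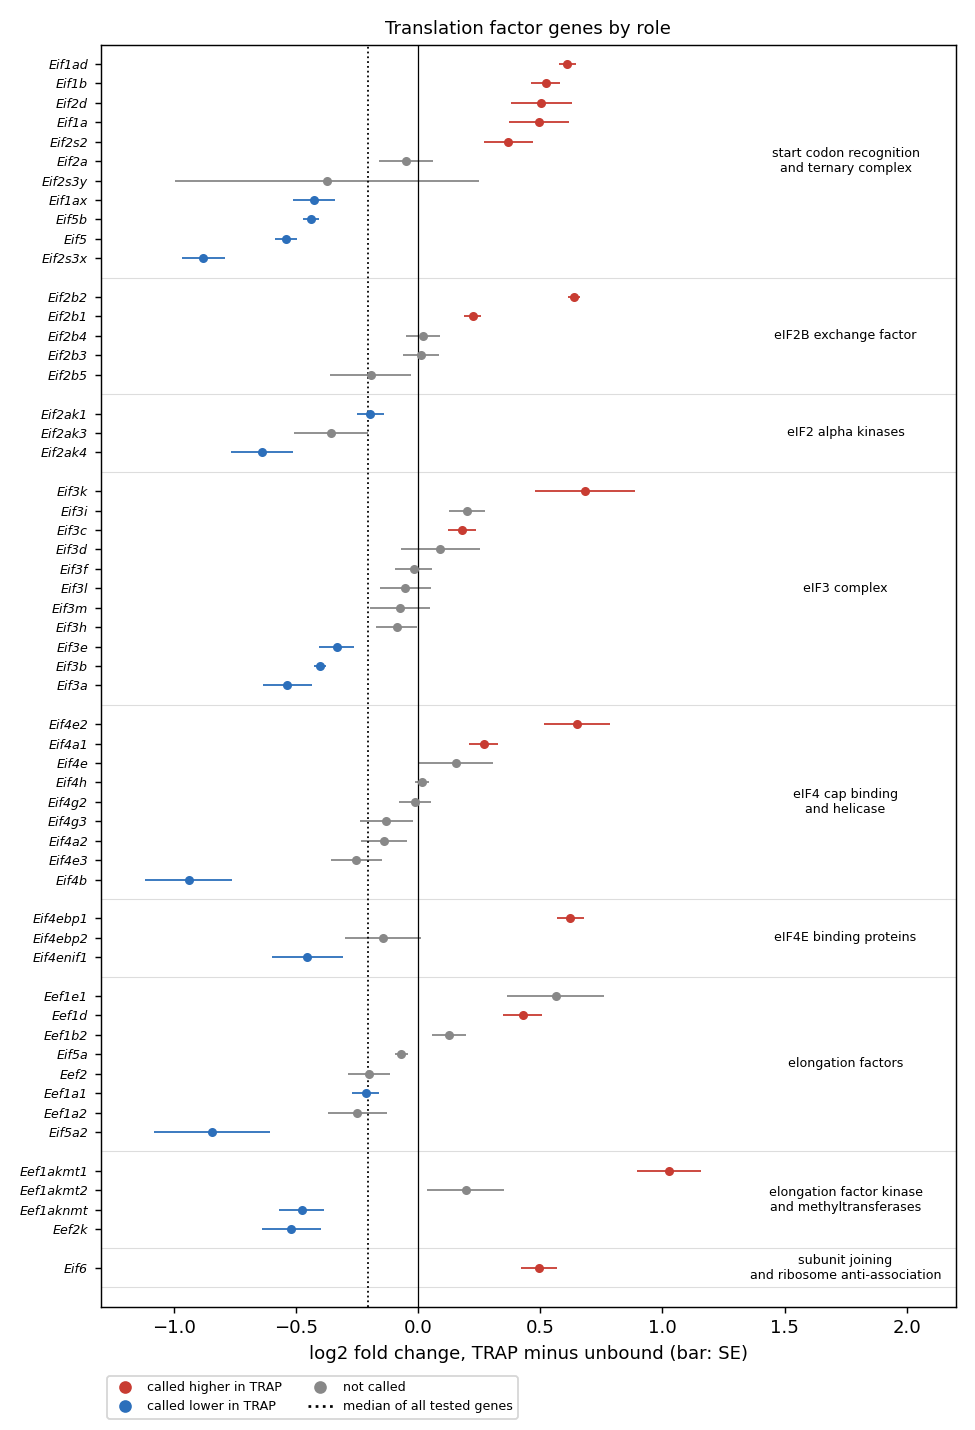
Log2 fold change of TRAP minus unbound for the 55 tested factors, by role, with bars for the SE of 3 arrays against 3. Red points are called higher, blue points called lower and grey points not called, and the dotted line is the median of all tested genes at -0.21. The factors lie between -0.94 and 1.03, with both colours in most roles.

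Factors of start codon recognition and of the ternary complex, which carries the initiator tRNA to the ribosome, were called in both directions. Among the 11 tested genes there were 5 higher calls and 4 lower calls (81.8% called, against 69.0% of all genes), and the median was -0.05. The intensity of Eif2s3x, the X-linked gene of the gamma subunit of eIF2, was 981, 1010 and 819 in TRAP and 1733, 1708 and 1708 in unbound. All TRAP arrays were below all unbound arrays, by 1.84-fold (log2 -0.88, SE 0.09, adjusted p = 6.1e-04). Eif2s2, the beta subunit, was 4272, 3761 and 3832 in TRAP and 3449, 2791 and 2966 in unbound (log2 0.37, SE 0.10, adjusted p = 0.021). The call of Eif2s2 rests on 1 of its 5 kept probe sets. The others lay at 0.22, -0.10, -0.05 and -0.60, of which the last was called lower, and the mean over them all was -0.032. The call was also lost without TRAP 1 or 3 or unbound 2 or 3 (adjusted p 0.052 to 0.072).

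Eif1b, a close relative of the start codon factor Eif1, was 12016, 11486 and 11900 in TRAP and 8682, 7605 and 8390 in unbound. It was 1.44-fold higher (log2 0.52, SE 0.06, adjusted p = 9.5e-04), with no overlap. Eif1ad, which encodes a protein with an eIF1A-like domain, was 1911, 1876 and 1836 against 1246, 1190 and 1246, or 1.53-fold higher (adjusted p = 8.0e-05). The other kept probe set of Eif1ad was lower (log2 -0.78), so this direction depends on the probe set. Eif2d, a factor that can deliver tRNA to the ribosome without GTP, was 1338, 1331 and 1338 in TRAP and 1129, 818 and 905 in unbound, and Eif1a was 2746, 2294 and 2443 against 2023, 1544 and 1763. Both were called higher (log2 0.50 and 0.49), and both calls were lost without TRAP 1 or unbound 3, and that of Eif2d also without TRAP 2 or 3 (adjusted p 0.051 to 0.060 for Eif2d and 0.054 to 0.056 for Eif1a).

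Eif5, the GTPase activator of eIF2, was 4270, 4493 and 4066 in TRAP and 6303, 6165 and 6165 in unbound. It was 1.45-fold lower (log2 -0.54, adjusted p = 3.2e-04), with no overlap. Eif5b, the GTPase of subunit joining, was 1023, 1023 and 1058 against 1427, 1366 and 1410, and was lower as well (log2 -0.44, adjusted p = 2.1e-04), as it was on each of its 3 kept probe sets. Eif1ax, the X-linked gene of eIF1A, was 4189, 3911 and 4076 against 6172, 5141 and 5114, a log2 fold change of -0.43 (adjusted p = 0.0083). Its second probe set was higher in TRAP. Eif2a had a log2 fold change of -0.05 and was not called.

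The Y-linked Eif2s3y, which encodes the same subunit as Eif2s3x, set the arrays apart by number and not by group. Its intensity was 290, 817 and 229 in TRAP and 368, 870 and 368 in unbound, with the arrays numbered 2 the highest of both groups. The groups overlapped (log2 -0.37, SE 0.62, adjusted p = 0.62). Kdm5d, another Y-linked gene, was 34.5, 102 and 49.1 in TRAP and 94.9, 162 and 73.7 in unbound, again highest on the arrays numbered 2. Xist, the RNA of the inactive X chromosome, was 11.6, 9.63 and 9.42 in TRAP and 118, 75.9 and 88.0 in unbound, with no overlap (adjusted p = 9.6e-05). Its TRAP values are under the cut of 50, and with these raised to 50 it was at least 1.85-fold lower. The labels give no sex, and its part in the values of Eif2s3x and Eif1ax was not tested. Without both arrays numbered 2, an analysis added after the data were seen, 19 of the 30 called factors kept their call.

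**Figure D2:**
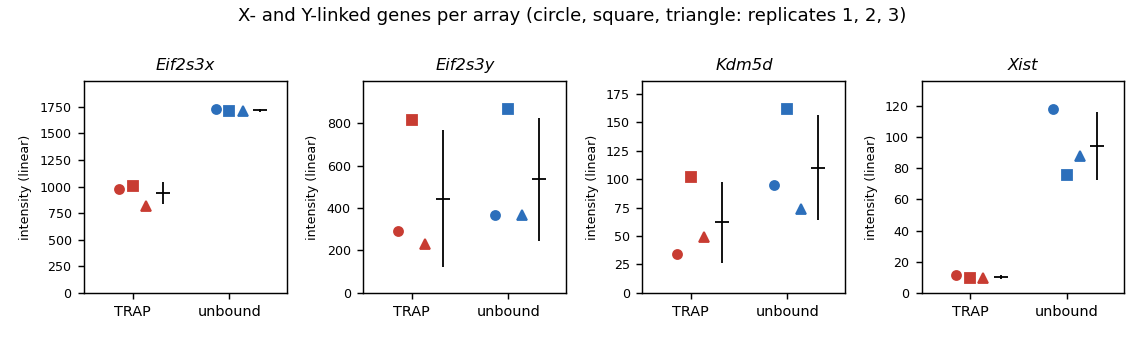
Intensity of Eif2s3x, Eif2s3y, Kdm5d and Xist on each array, on linear axes from 0, with circles, squares and triangles for replicates 1, 2 and 3 and the mean and SD (n = 3) in black. Eif2s3x and Xist separate the groups, and Eif2s3y and Kdm5d are highest on the arrays numbered 2 of both groups.

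eIF2B is the exchange factor that reloads eIF2 with GTP and is inhibited by phosphorylated eIF2 alpha. All 5 of its subunits were tested, and 2 were higher and none was lower (40% called, against 69.0% of all genes). Centred and quantile-normalised arrays both gave 4 higher. Eif2b2, the beta subunit, was 2918, 2886 and 2886 in TRAP and 1861 on all 3 unbound arrays, or 1.56-fold higher (log2 0.64, SE 0.02, adjusted p = 2.2e-05). The same value on several arrays narrows this error. Its other kept probe sets were not called, at 0.19 and -0.07, and the mean over the 3 gave 0.26 (adjusted p = 0.016). Such a repeated value occurred for 21 of the 55 factors and 6107 of all genes. Eif2b1, the alpha subunit, was 669, 671 and 656 against 552, 576 and 583 (log2 0.22, adjusted p = 0.0026). Eif2b3, Eif2b4 and Eif2b5 were not called, at 0.01, 0.02 and -0.19.

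All 3 tested kinases of eIF2 alpha had fold changes below 0, and 2 were called lower, or 1 with centred arrays. Their called share of 66.7% was near the 69.0% of all genes. Eif2ak4, the kinase that senses uncharged tRNA, was 217, 217 and 265 in TRAP and 392, 314 and 385 in unbound, 1.56-fold lower with no overlap (log2 -0.64, SE 0.13, adjusted p = 0.0074). Eif2ak3, the kinase of the endoplasmic reticulum, was 338, 471 and 465 against 497, 572 and 549. Its arrays did not overlap either, but it was not called (log2 -0.36, adjusted p = 0.086), and with the replicate number as a block its adjusted p was 0.032. Eif2ak1, the heme-regulated kinase, was 408, 419 and 408 against 437, 490 and 490 (log2 -0.20, adjusted p = 0.026). That difference is close to the median of all genes, its sign turned to 0.055 with centred arrays, and the call was lost without any 1 of TRAP 1, 2 or 3 or unbound 2 or 3 (adjusted p 0.053 to 0.078). Another of its kept probe sets was 2.19-fold lower with no overlap (log2 -1.13, adjusted p = 0.0069 over probe sets). Eif2ak2, which senses double-stranded RNA, was under 50 in both groups.

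eIF3 is the largest initiation complex and a scaffold on the small subunit. Of its 11 tested subunits 2 were higher, 3 lower and 6 not called (45.5% called, against 69.0% of all genes), and the median was -0.05. Centred arrays gave 4 higher and 1 lower. Eif3k was 3124, 2293 and 3500 in TRAP and 2059, 1507 and 1954 in unbound. It was 1.61-fold higher, with the lowest TRAP array above the highest unbound array (log2 0.68, SE 0.21, adjusted p = 0.032). The arrays numbered 2 were the lowest of both groups, and the call was lost without TRAP 1 or 3 or any 1 unbound array (adjusted p 0.052 to 0.097). Eif3c was 3552, 3581 and 3274 against 3247, 2934 and 3013, at a log2 fold change of 0.18 (adjusted p = 0.042), and with the replicate number as a block its adjusted p was 0.051. That call was also lost without TRAP 1 or 2 or unbound 2 or 3 (adjusted p 0.11).

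The lower eIF3 subunits were Eif3a, Eif3b and Eif3e. Eif3a was 2582, 2305 and 2419 in TRAP and 3281, 4054 and 3298 in unbound, 1.45-fold lower (log2 -0.54, SE 0.10, adjusted p = 0.0064). Eif3b was 876 on all 3 TRAP arrays against 1171, 1152 and 1152 (log2 -0.40, adjusted p = 1.1e-04), and Eif3e was 12663, 11730 and 11000 against 15909, 14134 and 14562 (log2 -0.33, adjusted p = 0.011). None of the 3 overlapped between groups. With the arrays centred or quantile normalised, at least 1 of these fits lost the calls of Eif3a and Eif3e, and that of Eif3b was kept. Eif3i, Eif3d, Eif3f, Eif3l, Eif3m and Eif3h were not called, with log2 fold changes from -0.09 (Eif3h) to 0.20 (Eif3i). Eif3i was called without unbound 1 or unbound 2 (adjusted p 0.034), and its other kept probe set was called higher, at 0.47.

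Among the 9 tested factors of cap binding and mRNA unwinding, 2 were higher, 1 was lower and 6 were not called. This was 33.3% called, against 69.0% of all genes, and centred arrays gave 5 higher and 1 lower. Eif4b, an RNA-binding cofactor of the eIF4A helicase, was 1041, 1176 and 1091 in TRAP and 1639, 2574 and 2231 in unbound. It was the lowest of all factors, 1.92-fold lower with no overlap (log2 -0.94, SE 0.18, adjusted p = 0.0065). Its other 2 probe sets were lower too, at -0.92 and -0.28. Eif4a1, a helicase of the cap complex, was 4290, 4311 and 4311 against 3565, 3859 and 3324 (log2 0.27, SE 0.06, adjusted p = 0.012), whereas its relative Eif4a2 was 12393, 10124 and 11802 against 13395, 11862 and 12459 and was not called (log2 -0.14, adjusted p = 0.23). The difference between the relatives was not tested. One probe set of Eif4a1 lay at -0.17, so its direction depends on the probe set.

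The cap-binding proteins differed in call. Eif4e2, the homologue 4EHP that binds the cap without recruiting eIF4G, was 812, 764 and 617 in TRAP and 522, 450 and 423 in unbound, or 1.57-fold higher (log2 0.65, SE 0.14, adjusted p = 0.0091). This direction depends on the probe set, since 2 of its 4 were called lower and the mean over them was -0.092. Eif4e, the general cap-binding protein, was 5727, 4041 and 5236 against 4688, 4005 and 4688, with overlapping groups (log2 0.15, 95% interval -0.24 to 0.54, adjusted p = 0.40). Eif4e3 was 761, 594 and 605 against 771, 779 and 771 and was not called (log2 -0.25, adjusted p = 0.082), but without TRAP 1 its adjusted p was 8.2e-04. The difference between Eif4e2 and the other two was not tested. The scaffolds were not called either. Eif4g2 was 17613, 18091 and 20233 against 19526, 18258 and 18610 (log2 -0.01), and Eif4g3 was 2031, 2072 and 2197 against 2013, 2277 and 2650 (log2 -0.13). Eif4h, a relative of Eif4b, was at 0.01 and was not called.

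The eIF4E binding proteins keep eIF4E from eIF4G. Eif4ebp1 was 248, 231 and 231 in TRAP and 158, 145 and 158 in unbound, 1.54-fold higher with no overlap (log2 0.62, SE 0.05, adjusted p = 3.5e-04). Eif4ebp2, described as the main form in brain, was 144, 144 and 113 against 172, 127 and 144 on its brightest probe set, with overlapping groups (log2 -0.14, adjusted p = 0.44), though without TRAP 1 or TRAP 2 that adjusted p was 0.022 to 0.023. Eif4enif1, the transporter 4E-T that carries eIF4E into the nucleus, was 785, 630 and 717 against 1158, 860 and 914 (log2 -0.45, adjusted p = 0.038). Its call was lost without any 1 of the TRAP arrays, unbound 1 or unbound 3 (adjusted p 0.051 to 0.11).

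**Figure D3:**
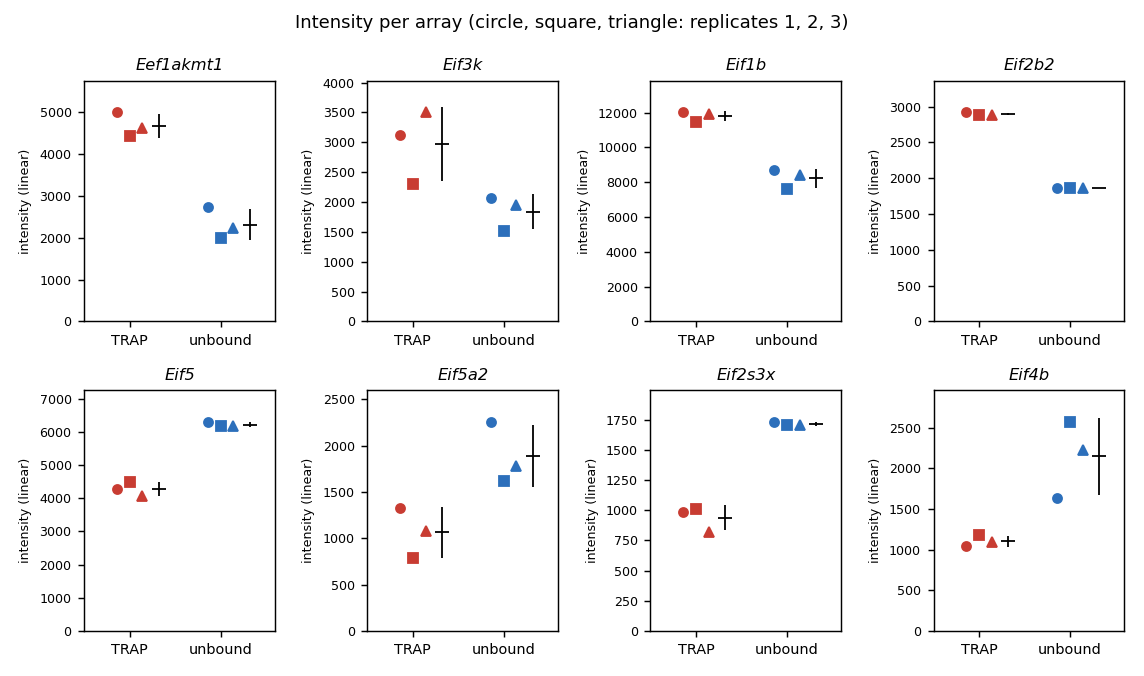
Intensity on each array for 4 of the factors called higher and 4 called lower in TRAP, on linear axes from 0, with circles, squares and triangles for replicates 1, 2 and 3 and the mean and SD (n = 3) in black. In all 8 panels the TRAP and unbound arrays do not overlap, with the widest relative spread in Eif3k and Eif5a2.

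Of the 8 tested elongation factors, 1 was higher, 2 were lower and 5 were not called (37.5% called, against 69.0% of all genes). Centred arrays gave 4 higher and 1 lower. Eef1a1, which delivers aminoacyl-tRNA to the ribosome in most tissues, was 24241, 21457 and 23486 in TRAP and 26805, 25998 and 27426 in unbound, 1.16-fold lower (adjusted p = 0.020). Its log2 fold change of -0.22 is close to the median of all genes and turned to 0.037 with centred arrays. The call was lost without unbound 1 or 3 (adjusted p 0.055 to 0.067). Eef1a2, the form of neurons and muscle, was 16225, 12214 and 14694 against 17402, 15736 and 17864 and was not called (log2 -0.25, adjusted p = 0.12), while the block gave 0.045. Eef2, the translocase, was 7136, 6657 and 6861 against 7488, 7415 and 8916, with no overlap but without a call (log2 -0.20, adjusted p = 0.085). Processed copies of Eef1a1 exist in the genome, so its probe sets may also read those.

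Eif5a and Eif5a2 encode the hypusine-carrying factor that helps ribosomes past proline stretches. Eif5a2 was 1330, 782 and 1075 in TRAP and 2256, 1614 and 1777 in unbound, 1.80-fold lower with no overlap (log2 -0.84, SE 0.24, adjusted p = 0.025). Its call was lost without TRAP 3, unbound 1 or unbound 3 (adjusted p 0.066 to 0.076). Eif5a was 31948, 31891 and 32115 against 33310, 33358 and 33990, a log2 fold change of -0.07 that was not called in the fit over genes. These are among the brightest values on the arrays, where a fold can be compressed.

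Eef1d and Eef1b2 are subunits of the eEF1B exchange complex. Eef1d was 7119, 7173 and 6221 in TRAP and 5258, 4728 and 5258 in unbound (log2 0.43, 1.34-fold, adjusted p = 0.0057), on a probe set marked as open to cross-hybridisation. Its other kept probe sets were at 0.29, not called, and -0.50, called lower, and the mean over the 3 was not called (0.07, adjusted p = 0.36). Eef1b2 was at 0.12 and was not called. Eef1e1, a protein of the tRNA synthetase complex, was 5163, 3981 and 5632 against 4033, 2724 and 3274 (log2 0.56, adjusted p = 0.052). It was called with the replicate number as a block (adjusted p = 0.017) and without TRAP 2 or unbound 1 (adjusted p 0.035 to 0.036).

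The enzymes that modify elongation factors included the largest increase. Eef1akmt1, a lysine methyltransferase of eEF1A, was 4984, 4425 and 4602 in TRAP and 2723, 1981 and 2225 in unbound. It was 2.04-fold higher with no overlap (log2 1.03, SE 0.13, adjusted p = 0.0014), and its 3 kept probe sets gave log2 fold changes of 0.96 to 1.05. Eef2k, the kinase that inhibits eEF2, was 550, 676 and 548 against 953, 790 and 795, 1.43-fold lower with no overlap (log2 -0.52, adjusted p = 0.014). Eef1aknmt, which methylates the eEF1A N terminus and a lysine, was 148, 121 and 143 against 202, 182 and 189 (log2 -0.48, adjusted p = 0.0065), and Eef1akmt2 was not called, at 0.19. The calls of Eef2k and Eef1aknmt were both lost with centred arrays (adjusted p 0.072 and 0.061) and with quantile normalisation (0.060 and 0.071), where 2 genes of this role were higher and 0 lower. Eif6, which keeps the large ribosomal subunit from joining too early, was 2849, 2697 and 2792 against 2036, 1787 and 2109, 1.41-fold higher (adjusted p = 0.0024), though its other kept probe set lay at -0.0027 and was not called.

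More than 1 kept probe set read 31 of the factors, and the median range between probe sets of a gene was 0.50 on the log2 scale for them and 0.48 for all such genes. For 5 (16.1%) of the 31, at least 1 was called higher and at least 1 lower, against 519 of 5152 genes (10.1%) over the whole array. The brightest probe set gave a higher fold change than the dimmest in 21 of the 31 (67.7%), against 51.3% of all such genes. The median of that difference was 0.29 on the log2 scale for the factors and 0.02 for all genes. Counted over probe sets, 22 of the 115 were higher and 41 lower, where 20.6% and 47.7% of all tested probe sets were (68.3% called in all). Probe sets of a gene can read different transcript ends or forms, and which form each one reads was not tested.

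Eif5 was read by 5 kept probe sets. The dimmest was 24.4, 23.1 and 18.7 in TRAP, all under the cut of 50, and 207, 169 and 142 in unbound. With the TRAP values raised to 50 it was at least 3.41-fold lower, while the other probe sets had log2 fold changes between -0.54 and 0.01. Eif1ax had a probe set at 5323, 4872 and 4616 in TRAP against 3016, 2864 and 2511 in unbound, 1.77-fold higher (log2 0.82), beside the lower one given above and another at 0.05. The 4 probe sets of Eif4e2 lay at 0.65, 0.54, -0.41 and -1.15, all called. The lower pair were its dimmest, and the lowest rests on TRAP values under 50. Eef1d and Eif2s2 also held a dim lower probe set each, at -0.50 and -0.60. All 3 probe sets of Eef1akmt1 were higher, and all 3 each of Eif2s3x, Eif4b and Eif5b were lower.

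**Figure D4:**
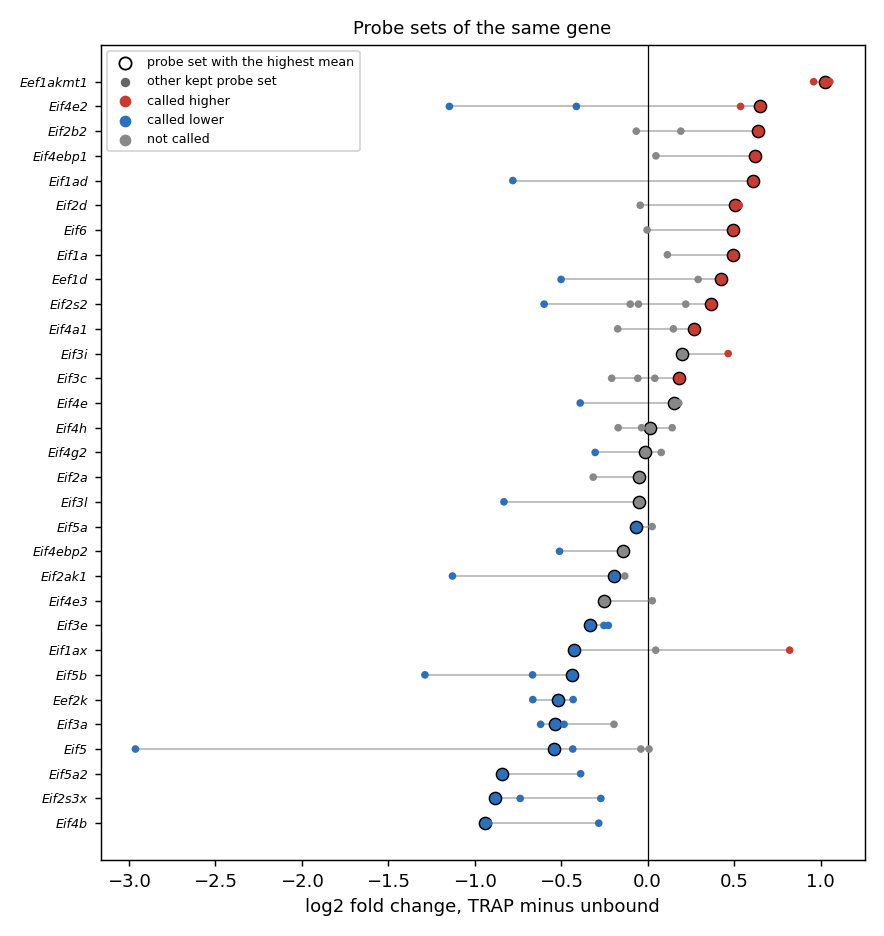
Log2 fold change of TRAP minus unbound for each kept probe set of the 31 factors read by several, where the outlined point is the probe set with the highest mean. Red is called higher, blue called lower and grey not called, and 5 genes hold both red and blue points. The lowest point, of Eif5, rests on TRAP values under 50.

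The factors were set beside other genes of the same process. Of 45 tested cytosolic ribosomal protein genes 14 were higher and 5 lower (42.2% called, against 69.0% of all genes), at a median of 0.10. Of 61 tested genes that regulate or follow initiation and elongation but are not members, 10 were higher and 33 lower, at a median of -0.34. Their called share of 70.5% was near the 69.0% of all genes, of which 23.3% were higher and 45.7% lower. In the lists of these genes given below, it ran from 33.3% (accessory initiation proteins) to 91.7% (mTORC1 and cap kinases). With centred or quantile-normalised arrays 20 of these were lower, and with the same scalings 30 or 20 of the ribosomal protein genes were higher and 3 or 4 lower. The 8 factors that belong to the TOP mRNA class and were tested had 1 higher and 2 lower and a median of -0.14, or 3 higher, 0 lower and a median of 0.11 with centred arrays. This class is a gene list and not the outcome of the search at annotated starts, which found Eif3f alone among its genes. The difference between these groups was not tested.

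**Figure D5:**
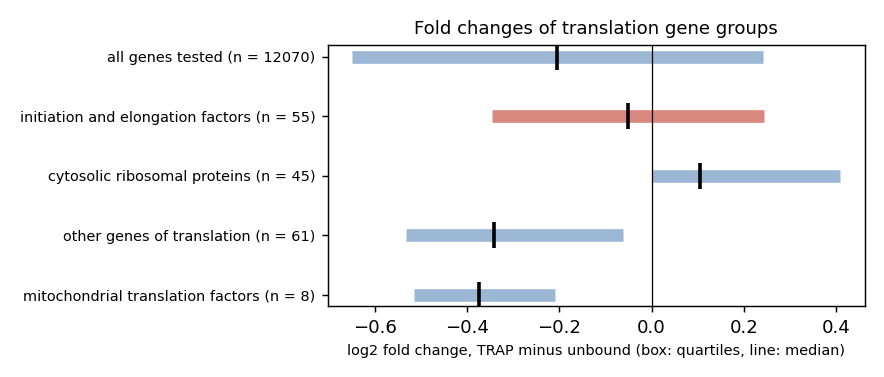
Quartiles (bars) and medians (lines) of the log2 fold change of TRAP minus unbound for all tested genes and 4 groups of translation genes, with the number of genes in each. The median is -0.21 for all genes, -0.05 for the initiation and elongation factors, 0.10 for cytosolic ribosomal proteins, -0.34 for the other genes of translation and -0.38 for mitochondrial translation factors.

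Upstream of eIF4E, 4 of 12 tested genes of mTORC1 and the cap kinases were higher and 7 lower, and with quantile-normalised arrays 4 were higher and 3 lower. Mtor, the kinase of the complex, was 672, 680 and 659 in TRAP and 1392, 1526 and 1623 in unbound, 2.25-fold lower with no overlap (adjusted p = 6.8e-05). Mlst8, another subunit, was lower at -0.76, and Mknk2, a kinase that phosphorylates eIF4E, was higher at 0.89. Of the 8 partners of the integrated stress response, which runs through eIF2 alpha, 1 was higher and 5 lower. Trib3 was at -0.91, Ppp1r15b, a subunit of the eIF2 alpha phosphatase, at -0.60 and Ddit3 at -0.53. The intensity of Trib3 was 31.0, 27.0 and 27.0 in TRAP and 47.2, 58.1 and 54.6 in unbound. All its TRAP values were under the cut of the filter, so the size of its fold is uncertain.

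Of 7 poly(A) binding genes, which link the tail to the cap complex, none was higher and 5 were lower, but centred arrays gave 2 higher and 2 lower. Pabpc1, the main such protein of the cytoplasm, was 3236, 2861 and 3319 in TRAP and 6056, 5765 and 6094 in unbound, 1.91-fold lower (log2 -0.93, adjusted p = 1.9e-04), with Larp4 at -0.84 and Pabpc4 at -0.62, whose call was lost with either scaling (adjusted p 0.12 and 0.14). Of 8 tested translational repressors of neurons none was higher and 6 were lower, or 4 lower with centred arrays, among them Cpeb1 (-0.81), Fmr1 (-0.70) and Cpeb4 (-0.67). Of 10 termination, recycling and rescue genes 2 were higher, with Pelo at 0.42, and 4 were lower (2 lower with centred arrays), with Gspt1 at -0.55 and Gtpbp1 at -0.40.

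Dhps, the first enzyme of hypusine synthesis on eIF5A, was higher at 0.76 (1.69-fold, adjusted p = 0.0074), the opposite direction to Eif5a2. Of 6 accessory initiation proteins 1 was higher, Tpt1 at 0.24, and 1 lower, Dhx29 at -0.47. Of 8 mitochondrial translation factors 1 was higher and 5 lower, or 1 and 2 with quantile normalisation, led by Guf1 (log2 -1.36, 2.57-fold lower, adjusted p = 2.4e-06), with Gfm2 at -0.53 and Gfm1 at -0.51. Guf1 was 63.0 on every TRAP array and 162 on every unbound array. Its adjusted p therefore reflects no measured spread between arrays.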

How the data were processed

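The authors deposited linear intensities from Affymetrix arrays normalised with GCRMA, per the submitters' processing notes (version not given in the sources used here), with 1 column for each of the 6 samples. Per the labels' protocols, about 15 ng of RNA was amplified in 2 rounds. Whether all arrays were normalised in 1 run is not stated. Probe sets took the platform annotation's symbol where there was only 1. A probe set was kept with a group mean of at least 50 in at least 1 group, each gene was read by its kept probe set with the highest mean, and log2 intensities were fitted with limma 3.58.1 (R 4.3.3), with Benjamini-Hochberg adjustment over all 12070 genes. For 3 samples against 3, the smallest 2-sided exact permutation p is 0.1, so single genes rest on limma. Replicates are labelled biological, but no animal numbers are given, so p-values reflect only how these samples differ from one another, and that may be technical. Deviations of same-numbered samples from their group means correlated at 0.50, 0.46 and 0.37 over all genes, so the replicate numbers pair the samples.

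The members and gene lists were chosen with earlier results of these data known. Values per array are given for the 10 called factors highest in TRAP and the 10 lowest, where arrays of the groups do not overlap, for related factors, and for some of the others. From each other list, up to 3 called genes with the largest fold are named. The fit was also run on simulated data with independent errors. Those data lack the pairing and the repeated values of these samples, so the run does not show how the fit behaves here. Alternatives changed the filter, floor, scaling, probe set choice, repeated values, a 2-fold test (treat), the replicate block and each left-out sample. The published list of S100a10 genes recommended by the series text was not used here.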

Additional observations from a re-analysis of the deposited data

How the results depend on the processing

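The calls of the factors changed with scaling and the choice of probe set, and not with the choice of filter and floor. All 30 calls were kept with no filter, a filter on both groups, values raised to 50, or log2 of the value plus 50. The lowest group mean of a called factor was 137 (Eef1aknmt in TRAP), so the filters and raised values left their intensities unchanged. Keeping the calls there says little about how steady they are. Quantile normalisation kept 26, the mean over probe sets 22, unmarked probe sets 26, centring on kept probe sets 22, and centring on all probe sets (added after seeing the data, as was leaving out both samples numbered 2) 17. Depth does not apply to arrays, and the 6 samples limit the precision. The cause of these shifts was not tested.

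With no filter, 4797 of all genes were higher and 8354 lower (median -0.15), and 37 factor probe sets were higher. The median of all genes was -0.19 with raised values, -0.18 with plus 50 and -0.23 with unmarked probe sets, where the factors' median was -0.13. With arrays centred on kept probe sets, 4407 genes were higher (median 0.047), 26 factors were higher and 7 lower (0.20), 47 factor probe sets were higher and 20 lower (0.19), and 20 other translation genes were lower (-0.089). With quantile normalisation the medians were 0.0037 for all genes, 0.060 for factors and -0.10 for other translation genes, of which 20 were lower, and 36 factor probe sets were higher and 24 lower (0.089). Centring on all probe sets gave 5713 genes higher and 2692 lower (0.23), 34 factors higher and 2 lower (0.38), 62 factor probe sets higher and 11 lower (0.36), and 20 other translation genes higher and 8 lower (0.091). Without probe sets that hold repeated values, 1372 genes were higher and 2734 lower, 9 factors were higher, 12 factor probe sets were higher and 13 lower, and 5 other translation genes were higher and 19 lower (-0.29). Against a 2-fold change (limma's treat), 547 genes were higher and 792 lower, 0 factors were higher and 0 lower (0 and 0 at an unadjusted p under 0.05), 0 factor probe sets were higher and 1 lower, and 0 other translation genes were higher and 1 lower. Without both samples numbered 2, 9 factors and 14 factor probe sets were higher.

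With the replicate number as a block, 15 factors were higher and 17 lower, 2990 of all genes were higher and 5799 lower. Among the factors the block changed no call other than those of Eef1e1, Eif3c, Eef1a2 and Eif2ak3. Leaving out each sample in turn gave 2442 to 2822 genes higher and 4859 to 5215 lower (median -0.22 to -0.20), 10 to 16 factors higher and 11 to 15 lower (-0.07 to -0.02), 17 to 23 factor probe sets higher and 32 to 37 lower (-0.11 to -0.05), and 7 to 12 other translation genes higher and 29 to 34 lower (-0.36 to -0.32).

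Centring on kept probe sets turned the sign of 15 of the 55 factors, quantile normalisation 11, centring on all probe sets 21, the mean over probe sets 7 and unmarked probe sets 6. Of these, the genes called on the deposited scale or in the alternative are given here with the alternative's value, and the rest, 10, 10, 8, 2 and 2, were called in neither. They were, with the mean over probe sets, Eif4e2 (-0.092), Eif1ad (-0.084), Eif2s2 (-0.032), Eif3c (-0.011), Eif1ax (0.15) and Gspt1 (0.058), and with unmarked probe sets, Eif4e2 (-0.41), Eif6 (-0.0027), Eif4a1 (-0.17, the same without repeated values) and Eif3c (-0.056). With arrays centred on kept probe sets, Eif4g2 (0.24), Eif3f (0.23), Eif5a (0.18), Eif2ak1 (0.055, and 0.060 with quantile normalisation) and Eef1a1 (0.037) turned. With centring on all probe sets, they were Eif4g2 (0.42), Eif3f (0.41), Eif2a (0.38), Eif3l (0.38), Eif5a (0.36), Eif3m (0.36), Eif3h (0.34), Eif4a2 (0.29), Eif2ak1 (0.24), Eef1a1 (0.22), Eif3e (0.10), Eif3b (0.029) and Eif1ax (0.0054). Among the named translation genes that are not factors, Gspt1 turned with the mean over probe sets (0.058) and Gtpbp1 with centring on all probe sets (0.028).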
